A study of Xenopus laevis with 5 samples.

Results

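The goblet and cement-gland secretory genes examined here are itln1.L, agr2.S, ag1.S, capn8.3.L and olfm4.L. They were taken as every probe set of the array whose platform annotation gives one of these symbols alone, which gave 6 probe sets for 5 genes, out of 15491 probe sets and 7531 named genes. All 6 lay above the filter on dim signals that 9981 probe sets passed. RNA came from Xenopus laevis explants of presumptive ectoderm, cut from the embryo at stage 9 to 10 and kept in culture until harvest at the equivalent of stage 22. Embryos had received synthetic mRNA at the 2-cell stage, encoding ICD (3 samples) or HMM (2 samples), and both groups were otherwise treated alike per the labels. Neither abbreviation is spelled out in the labels, and the title of the series names Notch signalling in the epidermis. In this field ICD usually means the intracellular domain of Notch, which switches on target genes, and HMM a shortened human Mastermind protein, which keeps them off; no test uses this reading. No uninjected explants were analysed here, so higher and lower below compare ICD with HMM and do not say which group moved.

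The larval skin of Xenopus is covered by goblet cells, which release mucus and defence proteins onto the surface, with ionocytes, multiciliated cells and small secretory cells scattered among them. Notch signalling limits how many of those scattered cells form. The cement gland, an adhesive organ at the front of the head, is also made of ectodermal secretory cells and secretes sticky mucus. Secretory cells of this kind need enzymes of the endoplasmic reticulum that form disulfide bonds in cargo such as mucins. Signals are MAS5 intensities, a summary of the probes of a probe set on a linear scale, and each fold or difference is on the scale log2(signal + 5.9).

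Among the 5 genes, 4 were higher in ICD and 1, the goblet-cell lectin gene itln1.L, did not pass the test. By size, the differences ran from 2.48 for olfm4.L and 2.21 for capn8.3.L to 1.45 for agr2.S and 1.15 to 1.58 for the probe sets of ag1.S, and itln1.L differed by -0.33. In limma's test with Benjamini-Hochberg adjustment over 9981 probe sets, 5 of the 6 member probe sets were called higher at an adjusted p under 0.05, where 1.55% of all tested probe sets were. The same 5 showed no overlap between the groups, against 20.4% of all probe sets that were separated in that direction. The genes were chosen with earlier results of these data known, so these counts describe the members and support nothing further. Every call among the 5 was lost when ICD replicate 2 (22 calls over all probe sets) or HMM replicate 2 (11 calls) was left out. Those of capn8.3.L and of 1 ag1.S probe set were also lost without HMM replicate 1.

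**Figure D1:**
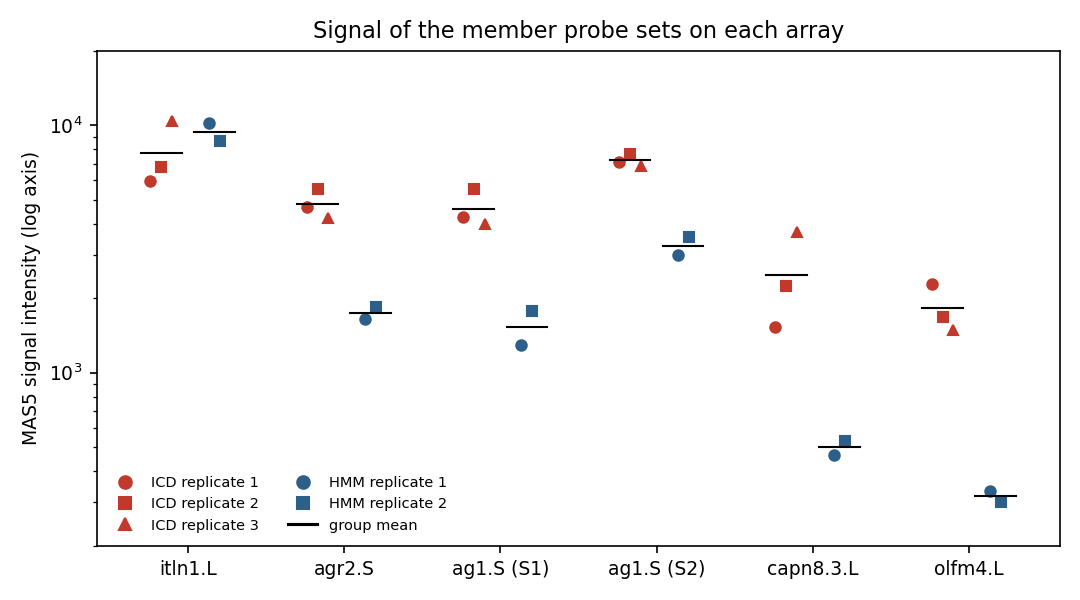
MAS5 signal intensity (log axis) of the 6 member probe sets on each array, with ICD in red, HMM in blue, the marker shape giving the replicate and a bar at the group mean. S1 and S2 are the probe sets of ag1.S whose names end in S1_at and S2_at. The groups overlap for itln1.L and lie apart for the other 5 probe sets.

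The gene itln1.L, also called Xeel, encodes intelectin, a secreted lectin that binds sugars on microbial surfaces and is a main goblet-cell product. Its signal was 5925, 6789 and 10404 in ICD replicates 1, 2 and 3, and 10234 and 8612 in HMM replicates 1 and 2. The ICD arrays thus straddled the HMM arrays, with ICD replicate 3 above both and ICD replicates 1 and 2 below both. Mean signal was 7706 ± 2376 over the 3 ICD arrays and 9423 ± 1147 over the 2 HMM arrays (SD). The log2 difference, -0.33 ± 0.25 (SE), had a 95% interval of -0.91 to 0.25 and a limma adjusted p of 0.524. The upper end of that interval lies below the smallest difference of a called member, 1.15. Leaving out any 1 array kept the difference between -0.57 and -0.16. The highest signal of any probe set on an array lay between 11196 and 15646, and itln1.L was among the bright probe sets, as were ag1.S and ag1.L. Whether signals of this brightness were compressed was not tested for any of them.

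The genes agr2.S and ag1.S encode anterior gradient proteins, members of the protein disulfide isomerase family. In mouse intestine the Agr2 protein is needed for mucin production by goblet cells, and in Xenopus both genes are long-used markers of the cement gland. The agr2.S probe set read 4657, 5543 and 4206.5 in ICD replicates 1 to 3 and 1646 and 1847 in HMM replicates 1 and 2. The lowest ICD array was thus 2.28 times the highest HMM array. Means were 4802 ± 680.1 over the ICD arrays (SD, n = 3) and 1747 ± 142.1 over the HMM arrays (SD, n = 2), which differed by 1.45 ± 0.19 (SE), or 2.73-fold (limma adjusted p = 0.0163).

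For ag1.S the array carries a pair of probe sets, S1 and S2 after the ends of their names. S2 averaged 7204 ± 405.7 over the ICD arrays and 3256 ± 376.2 over the HMM arrays (SD). It read 7093, 7654 and 6866 in ICD and 2990 and 3522 in HMM. It differed by 1.15 ± 0.15 (SE), or 2.22-fold (limma adjusted p = 0.0163). Both groups were tight in it, with a ratio of highest to lowest array of 1.11 in ICD and 1.18 in HMM. S1 averaged 4587 ± 833.8 and 1534 ± 340.9 (SD). It read 4238.5, 5538 and 3984 in ICD and 1293 and 1775 in HMM, a difference of 1.58 ± 0.23 (SE), or 2.99-fold (limma adjusted p = 0.019). The probe sets gave the same direction but not the same size: the log2 ratio of S1 to S2 was -0.74, -0.47 and -0.78 in ICD and -1.21 and -0.99 in HMM. That ratio differed by 0.43 between the groups (exact permutation test over 10 arrangements of the arrays, two-sided p = 0.1, the smallest it allows). In all 3 of these probe sets ICD replicate 2 was the highest and ICD replicate 3 the lowest of the ICD arrays.

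Xenopus laevis carries most genes as a pair of homeologs, .L and .S, from an ancient doubling of its genome, and the other copy of both anterior gradient genes was on the array. The ag1.L probe set read 6808.5, 6884 and 6941 in ICD and 5111 and 4132 in HMM, so the groups lay apart. The difference was 0.58 ± 0.15 (SE) and missed the threshold (limma adjusted p = 0.0848; 0.0416 after quantile normalization, where it was called). The agr2.L probe set read 2303, 4191 and 2338 in ICD and 672 and 1710 in HMM. The HMM arrays differed by 2.55 times from each other, and the difference of 1.39 ± 0.44 (SE) was not called (limma adjusted p = 0.133). It was 0.72 without HMM replicate 1 and 2.06 without HMM replicate 2, whereas that of agr2.S stayed between 1.34 and 1.54 with any 1 array left out. Whether the homeologs responded differently was tested on the log ratio of .S to .L for 690 homeolog pairs, of which 0.145% were called. That comparison was chosen after the values had been seen. For ag1 the .S copy, read by S2, differed by 0.57 ± 0.25 (SE) more than the .L copy, with a 95% interval of -0.05 to 1.18 (limma adjusted p = 0.512). That value was 0.30 without HMM replicate 1 and 0.84 without HMM replicate 2, and 1.00 with S1 in place of S2 (limma adjusted p = 0.299). For agr2 the value was 0.06 ± 0.40 (SE), with an interval of -0.91 to 1.02 (limma adjusted p = 0.976), and its sign turned without ICD replicate 1 (-0.07) and without HMM replicate 2 (-0.53). Neither test passed with 5 arrays, and the intervals leave room for a difference between homeologs. How far each probe set also binds RNA of the other homeolog is not known here.

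The gene capn8.3.L encodes a calpain, a calcium-activated cysteine protease of the cytoplasm. In mammals calpain 8 is found in mucus cells of the stomach surface. Its signal was 1525, 2238 and 3687 in ICD replicates 1 to 3 and 466.7 and 530.5 in HMM replicates 1 and 2. The HMM arrays were close to each other, while the ICD arrays spread over 2.42 times, the widest spread in ICD among the members. The lowest ICD array was still 2.87 times the highest HMM array. Means were 2483 ± 1102 over the ICD arrays (SD, n = 3) and 498.6 ± 45.1 over the HMM arrays (SD, n = 2), which differed by 2.21 ± 0.36 (SE), or 4.63-fold (limma adjusted p = 0.0234). In the RefSeq annotation capn8.3.L lies in a row of 5 capn8 genes with 1 other gene among them, and a second gene of that row, capn8.1.L, was on the array. The capn8.1.L probe set read 190.3, 827.6 and 609.2 in ICD and 216.2 and 179.5 in HMM. ICD replicates 2 and 3 were high, whereas ICD replicate 1 read like the HMM arrays, and the difference was 1.20 ± 0.58 (SE), short of the threshold (limma adjusted p = 0.322). With arrays left out it ran from 0.78 (without ICD replicate 2; limma adjusted p = 0.57) to 1.82 (without ICD replicate 1; limma adjusted p = 0.00962, which passed).

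The gene olfm4.L encodes a secreted glycoprotein with an olfactomedin domain. Its RefSeq synonym is tiarin, described in Xenopus as a secreted factor of non-neural ectoderm that promotes dorsal neural fates, while in human OLFM4 is a marker of intestinal crypt cells. It read 2285, 1685 and 1493 in ICD replicates 1 to 3 and 331.9 and 300.7 in HMM replicates 1 and 2. The groups were farther apart than for any other member, the lowest ICD array being 4.5 times the highest HMM array. Means were 1821 ± 413.2 over the ICD arrays (SD, n = 3) and 316.3 ± 22.1 over the HMM arrays (SD, n = 2). Their difference of 2.48 ± 0.25 (SE), or 5.59-fold (limma adjusted p = 0.0106), ranked 18 among the 9981 differences from the highest down. That of capn8.3.L ranked 37, that of agr2.S 221 and that of itln1.L 7613. Within ICD, olfm4.L was highest in replicate 1 and capn8.3.L in replicate 3.

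**Figure D2:**
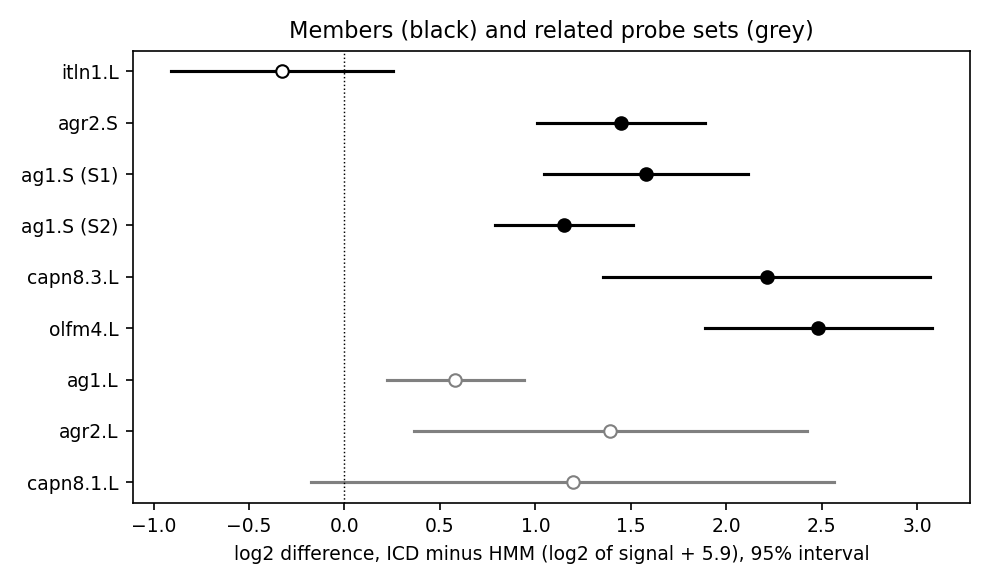
Log2 difference of ICD minus HMM with its 95% interval from limma, for the 6 member probe sets (black) and the 3 probe sets of their homeologs and paralogs (grey). Filled points passed the adjusted threshold; the interval of itln1.L runs from -0.91 to 0.25 and those of the 5 called members lie above 0.

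Each member was also read against itln1.L on the same array. This was chosen after the values had been seen, because itln1.L was the 1 member not called, so the ratios restate the values above array by array and test nothing further. Relative to itln1.L, olfm4.L stood at -1.37, -2.01 and -2.80 in ICD and -4.92 and -4.81 in HMM on the log2 scale, a difference of 2.81. For capn8.3.L the values were -1.95, -1.6 and -1.5 in ICD and -4.44 and -4.01 in HMM, a difference of 2.54. For agr2.S they were -0.35, -0.29 and -1.31 in ICD and -2.63 and -2.22 in HMM, a difference of 1.78. The ag1.S probe sets differed by 1.91 (S1) and 1.48 (S2). All 5 ratios, which share the itln1.L values, were higher on every ICD array than on either HMM array. Within ICD the ratios of agr2.S, ag1.S and olfm4.L were lowest in replicate 3, where itln1.L was highest.

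**Figure D3:**
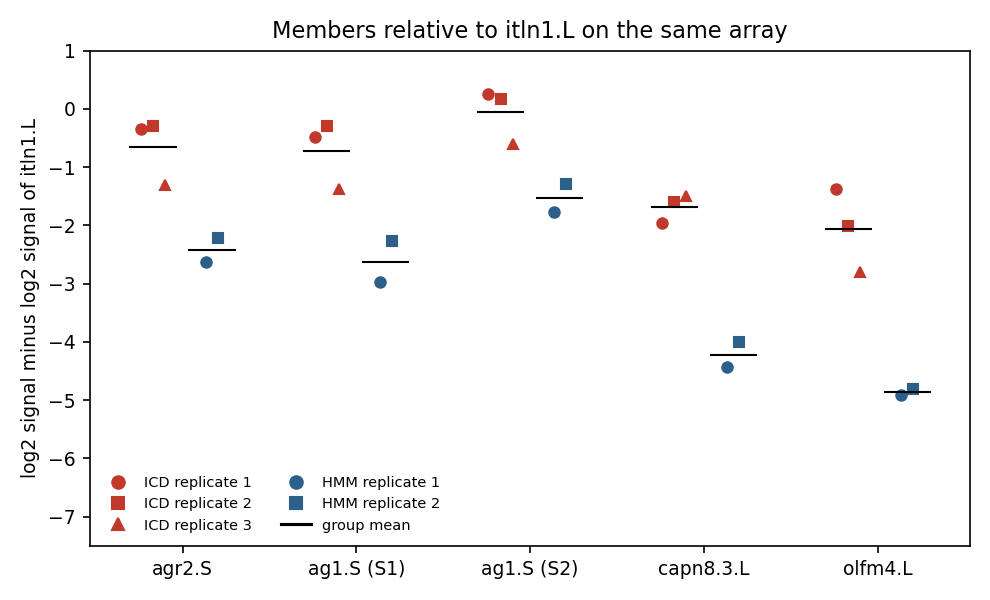
Log2 signal of each member probe set minus that of itln1.L on the same array (vertical axis, log2 units), ICD in red and HMM in blue, with bars at group means. Only shifts between arrays within a column can be read, since levels of different probe sets do not compare; in all 5 columns the ICD arrays lie above the HMM arrays.

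The profiles of the members over the 5 arrays were compared with those of other genes by root mean square distance. Each profile was centred on its own mean in log2 units. Probe sets above the filter with a single symbol were used, and the homeolog of a member was left out of its comparison. Nearest to itln1.L were tmem259.S, at 0.082, and slc18a1.S, at 0.099. The latter encodes a vesicular monoamine transporter and stood on the list of small secretory cell markers. Nearest to agr2.S were smad6.L, an inhibitor of BMP signalling, at 0.106, and gal3st4.5.S at 0.116. Nearest to ag1.S (S2) were c18orf21.L at 0.081 and the gap junction gene gja7.S at 0.09. Nearest to capn8.3.L were the tyrosine kinase gene src.S, at 0.092, and hapln3.L at 0.153, and nearest to olfm4.L were the keratin gene krt19.S, at 0.172, and the homeobox gene irx1.L at 0.259. Among the members themselves agr2.S and ag1.S lay 0.168 apart, while agr2.S lay 0.602 from capn8.3.L, 0.561 from olfm4.L and 0.951 from itln1.L. Some of the nearest probe sets were dim and fell below the filter value of 42.6 on some arrays. In ICD replicates 1 and 2 tmem259.S read 40.2 and 41.0. In HMM gal3st4.5.S read 18.5 and 21.8, and hapln3.L read 38.1 in HMM replicate 1. With 5 arrays these distances only describe the profiles.

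On a list of goblet and outer-layer secreted proteins, 12 genes were measured, 3 higher, 1 lower and 8 not passing, and all 3 higher genes were members. Without the members 8 genes remained, and none was called higher. They were the homeologs ag1.L (0.58) and agr2.L (1.39), a2ml1.L (0.80, groups overlapping), fetub.S and the uroplakin genes given below. The uroplakins are membrane proteins and not secreted, so the list is wider than its name. The median difference of the 8 genes was -0.14 beside 0.08 over all 9981 probe sets, of which 1.55% were called higher. That median rests largely on the uroplakin genes. The 1 lower gene was fetub.S, which encodes a secreted protease inhibitor. It read 1.5, 1.7 and 3.1 in ICD and 230.0 and 1142 in HMM, so it passed the filter through the HMM arrays alone. It was called lower (limma adjusted p = 0.0109, where 3.5% of all probe sets were called lower). Its ICD signals lay below the pseudocount, so the fitted difference of -6.03 depends on it; this ran from -7.17 to -4.89 with arrays left out, and the call was lost without HMM replicate 2. The uroplakin genes, whose proteins form plaques on apical membranes, had differences of -0.58 (upk1b.L), -0.38 (upk1a.S), -0.26 (upk1b.S) and -0.02 (upk3a.L), and none passed. On the list of intelectins and other lectins, which also holds both homeologs of rpn1, a subunit gene of the oligosaccharyltransferase, none of 7 measured genes was called, itln1.L included, and their differences ran from -0.33 to 0.49, with the galectin gene lgals3.L at -0.31 and lman2l.S at 0.49.

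A list drawn up for mucin-type glycosylation, which also holds enzymes of other sugar chains, included 2 genes that were called lower in ICD. Of 13 measured genes none was called higher and 11 did not pass, where 3.5% of all probe sets were called lower. Differences above 0 were seen in 2 of the 13, and their median was -0.65 beside 0.08 over all probe sets. The galnt genes of the list, galnt16.L (-1.23), galnt7.L (-0.35), galnt11.L (-0.13) and galnt11.S (-0.01), were not called. The fucosyltransferase gene fut1.S read 124.8, 112.1 and 96.7 in ICD and 307.6 and 279.2 in HMM, a difference of -1.36 (limma adjusted p = 0.0301). The galactosyltransferase gene b4galt3.S differed by -1.22 (limma adjusted p = 0.0414). Both calls held with ICD replicate 1 left out, where 5 genes of the list were called, and were lost with each other array left out. That of b4galt3.S was also lost under median centring (limma adjusted p = 0.0505) and with no filter (0.0538). The N-acetylglucosaminyltransferase gene b3gnt2.S, at -1.53, did not pass (limma adjusted p = 0.0535). It was called when the filter was set at the 60th percentile (limma adjusted p = 0.0471) and when ICD replicate 1 was left out. With any 1 array left out its difference lay between -1.98 and -1.08. Of 15 outer-layer transcription factor genes none was called, with a median of -0.34. Of these, gata3.S differed by 0.99, tfap2a.L by 0.93 and grhl1.L by -0.56. With ICD replicate 1 left out 2 genes of that list, gata3.S and tfap2a.L, were called higher, and with no filter 1 gene of it was called.

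The cement gland list held 13 measured genes, of which 3 were called higher (1.55% of all probe sets were), none lower and 10 did not pass. Their median was 0.98, beside 0.08 over all probe sets. With ICD replicate 1 left out 7 were called, and with either ICD replicate 2 or HMM replicate 2 left out the count was 0. Beside agr2.S and ag1.S the third was otx1.L, a head transcription factor gene, at 1319, 1717 and 2210 in ICD and 604.7 and 372.6 in HMM, a difference of 1.84 (limma adjusted p = 0.0241). Leaving out HMM replicate 2, or either of ICD replicates 2 and 3, ended that call. The regulator pitx1.L read 770.3, 2887 and 1606 in ICD and 263.4 and 520.7 in HMM, a difference of 2.03 that missed the threshold (limma adjusted p = 0.0934). Likewise otx2.L, at 294.5, 1107 and 986.8 in ICD and 175.9 and 287.6 in HMM, differed by 1.58 without passing (limma adjusted p = 0.188). For otx1.L, pitx1.L and otx2.L ICD replicate 1 was the lowest ICD array, as it was not for agr2.S or ag1.S. Other genes of the list differed less, and none of those named next was called. Above 0 were otx2.S (0.976, groups overlapping), tfap2a.L (0.929) and dlx3.L (0.457). Below 0 were bambi.L (-0.605), dlx3.S (-0.421) and bambi.S (-0.395). Without the members 11 genes of this list, the homeologs ag1.L and agr2.L among them, had a median of 0.93, and 1 (otx1.L) was called. The part of the regulators in the result for agr2.S and ag1.S was not tested.

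The protein folding machinery around agr2 and ag1 held no further called gene. Of 33 measured protein disulfide isomerase and endoplasmic reticulum folding genes, 25 had differences above 0 (55.9% of all probe sets did), and the 2 called higher were agr2.S and ag1.S. Without them none of 31 was called, the homeologs ag1.L and agr2.L included, and the median was 0.20 beside 0.08 over all probe sets. Among the 31 genes pdia6.L, a disulfide isomerase gene, differed by 0.64 (limma adjusted p = 0.146). Among 10 calpain and calpastatin genes capn8.3.L was the 1 called member, and the median of the other 9 was -0.29. The capn5 homeologs pointed in opposite directions, with capn5.L at 0.86 and capn5.S at -1.17, neither passing. Their log ratio differed by -2.03 ± 0.34 (SE) between the groups (limma adjusted p = 0.0874 over the 690 pairs). Of 5 hatching gland genes 1 was higher, klf17.L, a transcription factor gene, at 2.00 (limma adjusted p = 0.0254; not called without ICD replicate 2 or either HMM replicate), while znf750.S (-0.88) and prdm1.S (0.82) were not called. Over all probe sets 1.55% were called higher. No hatching enzyme gene was among the 5 measured genes of the hatching gland list. The olfactomedin family had no other measured gene.

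**Figure D4:**
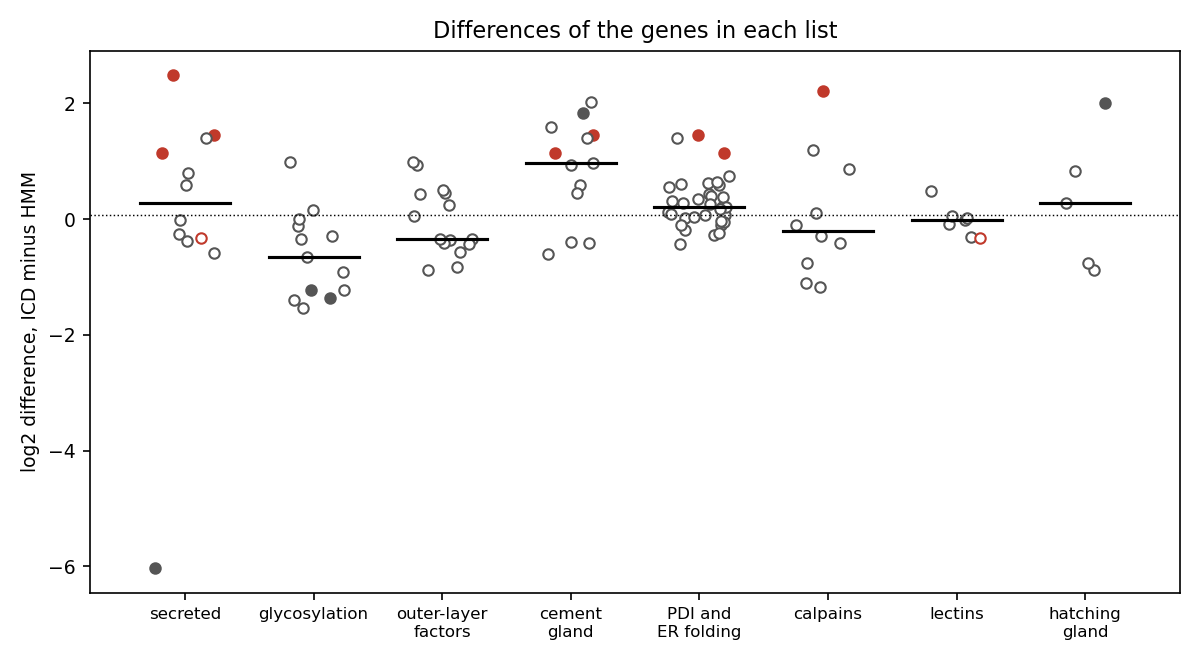
Log2 difference of ICD minus HMM for each measured gene of 8 gene lists (1 point per gene, placed sideways at random), members in red and other genes in grey, filled where called. Bars mark each list's median and the dotted line the median of all 9981 probe sets, 0.08; apart from members, called higher genes appear only in the cement gland list (otx1.L) and the hatching gland list (klf17.L).

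Markers of ionocytes and multiciliated cells differed strongly between the groups, and those of the other cell types and tissues examined differed less. All 10 measured ionocyte markers were lower in ICD, their summed signal lying between 187.1 and 334.1 in ICD and between 14040 and 25830 in HMM. Of these, 6 lay below the filter value on every ICD array. They passed the filter through the HMM arrays alone, so their direction followed from it. The markers slc26a4l.L, atp6v0d2.L and ca2.L exceeded the filter value in ICD on replicate 3 alone, so they also needed an HMM array to pass. Of 13 multiciliated cell markers 10 were called lower (3.5% of all probe sets were), with sums of 3052 to 4489 in ICD and 9970 to 16940 in HMM. Among the 13, 1 passed the filter through the HMM arrays alone. A further marker, foxn4.S, exceeded the filter value in ICD on replicate 3 alone and also needed an HMM array to pass. The tubulin gene tuba1c.S, the 1 multiciliated marker with a difference above 0 (0.46, not called), made up a large part of the ICD sums. It read 2456, 1839 and 2259 in ICD and 1851 and 1348 in HMM. Among 3 basal cell markers 2 were called higher (1.55% of all probe sets were), with sums of 440.3 to 672.2 in ICD and 176.2 to 191.3 in HMM. The sums of 5 small secretory cell markers overlapped, at 5562 to 8279 in ICD and 7651 to 8091 in HMM, with 1 gene (pnhd.L) called higher. That gene read 38.9 and 27.5 in HMM, below the filter value. It passed the filter through the ICD arrays alone, so its direction followed from it. Most of each small secretory cell sum came from otogl2.L, which read 4311, 3997 and 5577 in ICD and 5839 and 5170 in HMM. The signal of 1 endoderm gene also overlapped. For 9 neural and neural crest markers the sums ran from 679.9 to 1712 in ICD and from 499.9 to 535.9 in HMM, with none called. For 2 muscle genes they ran from 652.3 to 845.8 in ICD and from 317.7 to 607 in HMM, with ckm.L called higher. No measured marker read 0 on any array. In RNA of whole explants more cells of a type and more RNA per cell cannot be told apart, and the part of these shifts in the members' differences was not tested.

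MAS5 had set the 2% trimmed mean to 200.03 on each array. Median signal lay between 62.1 and 72.7, and 8908 probe sets were above the filter value on ICD replicate 1 against 9290 to 9463 on the other arrays. ICD replicate 3 stood apart in its 24 poly-A spike-in control probe sets, with a median of 2.95 against 318.2 to 355.5 on the other arrays. Without it the member differences were 2.61 for olfm4.L, 1.88 for capn8.3.L, 1.54 for agr2.S, 1.67 and 1.18 for ag1.S and -0.57 for itln1.L, with the same 5 called. The labels do not say whether replicates came from separate batches of embryos, so the p-values measure the spread between these samples, which may be technical in part. The small number of arrays limits the precision of every value.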

How the data were processed

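The authors deposited a linear signal intensity for each probe set on each array. Per the submitters' processing notes these come from MAS5; its version and settings are not given. MAS5 subtracts mismatch signal, which makes dim values noisy, and brings all arrays to 1 trimmed mean, which removes differences in total RNA. Of 15611 rows, 120 control probe sets were left out, leaving 15491; 1 symbol was given for 9304, several for 195 and none for 5992. Gene IDs of 9227 were found in a RefSeq table (Xenopus_laevis_v10.1), which updated 2 symbols. No coordinates are given, since the files carry none.

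The pseudocount of 5.9, added before taking log2, is the 10th percentile of all values. Probe sets above 42.6 (40th percentile) on at least 2 arrays were kept, 9981 in all. All 5 arrays entered 1 limma fit without covariates (version 3.58.1 under R 4.3.3; lmFit, then eBayes allowing a variance trend), with two-sided p-values adjusted by Benjamini-Hochberg over the kept probe sets and called under 0.05. Homeolog log ratios were fitted likewise, without the trend. Permutation tests used scipy 1.17.1 and figures matplotlib 3.10.9. The limma script was also run on simulated data, built from the means and residual SDs of the real fit. Members and lists were chosen with earlier results of these data known. Lists were matched by symbol; each gene was represented by its brightest kept probe set, and homeologs were kept separate. Named genes were the members, their homeologs and paralogs, the 3 genes with the smallest p in each gene list, and the 2 nearest profiles per member. Further genes were named after their values were seen. From the gene lists these were upk1a.S, upk1b.L, upk1b.S, upk3a.L, a2ml1.L, rpn1.L, rpn1.S, galnt16.L, galnt7.L, galnt11.L, galnt11.S, pitx1.L, otx2.L, otx2.S, dlx3.L, dlx3.S, bambi.L, bambi.S and pdia6.L. From the marker lists they were slc26a4l.L, atp6v0d2.L, ca2.L, foxn4.S, tuba1c.S, otogl2.L, pnhd.L and ckm.L. The alternatives were other scalings, pseudocounts, filters and variance models, each array left out, the replicate number as a block and, for lists, another choice of probe set.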

Additional observations from a re-analysis of the deposited data

How the results depend on the processing

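The directions of the 6 member probe sets held under quantile normalization, median centring, no pseudocount, 4 times the pseudocount, no filter, a stricter filter (60th percentile), eBayes with no trend or with robust estimation, and each array left out, and 5 were called under each of these that kept all arrays. With arrays left out, member calls ran from 0 to 5, calls over all probe sets from 11 to 843 and called list genes from 0 to 18. Fits with 4 arrays also have fewer residual degrees of freedom. The replicate number as a block gave 1714 calls over all probe sets in place of 504, 6 member calls in place of 5, and 28 called list genes in place of 9 (8 in place of 3 on the cement gland list). The added member call was itln1.L, lower in ICD by -0.57 (limma adjusted p = 0.0358), and the block also called ag1.L (0.0297) and agr2.L (0.00175) higher. Deviations from the group means correlated across probe sets at 0.651 between ICD replicate 1 and HMM replicate 1 and at 0.508 between the replicates numbered 2. ICD replicate 3, whose number no HMM array carries, correlated at 0.4 with HMM replicate 2. The deviations of a group cancel out, so these values are not independent. With 2 HMM arrays they are mirror images of the crossed values. The labels do not say that a number marks a shared batch, so the samples were not treated as pairs. The log ratio of agr2.S to agr2.L turned to -0.074 without ICD replicate 1 and to -0.532 without HMM replicate 2, and was 0.643 without HMM replicate 1. The cause was not tested. Differences relative to itln1.L stayed above 0 under the alternatives run for them.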
